A study of Mus musculus with 22 samples.

Results

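This report follows 34 photoreceptor and phototransduction genes through ribotag RNA-seq of mouse optic nerve astrocytes. The genes were taken by symbol, and all 34 were found among the 29367 genes of the count table. They comprise 10 genes used by rods, 7 used by cones and 17 shared by both cell types. The mice came from a cross of the ribotag strain B6J.129(Cg)-Rpl22tm1.1Psam/SjJ with the B6.Cg strain that carries Tg (GFAP-Cre) 73.12Mvs/J, so that Cre under the Gfap promoter switched on an HA-tagged ribosomal protein. The genotype label was WT in every sample, and the study's methods describe the experimental mice as homozygous for the tagged allele with the Cre transgene. All samples followed a unilateral microbead injection, which raises intraocular pressure, and the mice were 3 to 4 months old. The optic nerve head (ONH) and the adjoining optic nerve proper (ONP) were collected 7 or 30 days later, and each library held pooled tissue of 4 mice, 2 male and 2 female. There were 7 ONH and 7 ONP libraries at 30 days and 4 of each at 7 days, 22 in all. No uninjected sample was analysed here, so each level is read against another injected group. The study's methods state that ONH and ONP tissue came from the same mice, while the labels do not say which libraries these are.

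Photoreceptors are the light-sensing neurons of the retina and are not cells of the optic nerve. In the outer segment, a photoactivated opsin switches on the G protein transducin, transducin relieves the inhibition of the phosphodiesterase PDE6, and the fall in cyclic GMP closes a cyclic nucleotide-gated channel. Arrestin and a GTPase accelerator end the response, and calcium sensors reset it. Rods and cones use closely related but separate genes for most of these steps, while disc rim proteins, retinoid handling enzymes and the transcription factor CRX are shared. In bulk samples such as these, fewer cells of a type and less RNA per cell cannot be told apart.

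Promoter sequences were matched for 25 of the 34 genes in RefSeq (GRCm38.p6). CRX, the homeobox factor of photoreceptors, recognizes a short core, TAATCC, here searched on both strands as TAATCC or GGATTA in the 250 bases before each start. The core was present in 10 of the 25 promoters (40.0%), against 6.3% of all 32851 promoters searched. The NRL core TGCTGA, or TCAGCA on the other strand, was present in 7 of the 25 (28%), against 16.1% of all promoters. The letters can occur in a promoter without being a binding site. Below are the 150 bases before the start of 3 genes with the core, shown in capitals, and of 3 genes without it, chosen to cover rod, shared and cone genes whose levels are described further on. All 6 stretches are genomic sequence upstream of the gene, outside its annotated exons and introns.
Sag (rod arrestin), chr1:87803530-87803679, plus strand: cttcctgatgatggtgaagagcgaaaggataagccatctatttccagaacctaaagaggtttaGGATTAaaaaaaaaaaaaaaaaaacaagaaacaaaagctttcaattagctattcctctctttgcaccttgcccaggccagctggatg
Rbp3 (retinoid carrier), chr14:33953853-33954002, plus strand: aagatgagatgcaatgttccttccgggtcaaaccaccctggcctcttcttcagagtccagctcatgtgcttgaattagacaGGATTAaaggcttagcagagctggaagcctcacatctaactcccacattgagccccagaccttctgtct
Aipl1 (PDE6 chaperone), chr11:72037510-72037659, minus strand: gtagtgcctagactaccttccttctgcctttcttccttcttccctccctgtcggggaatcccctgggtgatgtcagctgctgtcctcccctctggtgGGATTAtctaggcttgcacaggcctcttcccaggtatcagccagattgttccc
Pdc (phosducin), chr1:150319267-150319416, plus strand: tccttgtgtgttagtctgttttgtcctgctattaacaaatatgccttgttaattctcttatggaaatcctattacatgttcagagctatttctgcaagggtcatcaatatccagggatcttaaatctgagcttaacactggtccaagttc
Rom1 (disc rim protein), chr19:8929357-8929506, minus strand: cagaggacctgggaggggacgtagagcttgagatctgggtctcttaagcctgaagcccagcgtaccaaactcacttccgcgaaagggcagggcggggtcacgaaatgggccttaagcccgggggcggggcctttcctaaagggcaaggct
Arr3 (cone arrestin), chrX:100605347-100605496, plus strand: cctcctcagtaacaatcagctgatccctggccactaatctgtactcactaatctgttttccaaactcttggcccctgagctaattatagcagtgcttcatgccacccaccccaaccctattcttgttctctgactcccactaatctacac
The core begins 87 bases before the start in Sag, 69 in Rbp3 and 53 in Aipl1. It was also present in Abca4, Cnga1, Cngb1, Crx, Gnat2, Gngt1 and Guca1a, and not in these windows of Nrl, Nr2e3, Pde6b, Prph2 or Tulp1, whose levels are given beside those of the first group.

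Libraries held 16292489 to 33307092 counts. As a check of the astrocyte label, an 11-gene list led by Gfap summed to between 16050 and 35330 counts per 1000000 (CPM) in all 22 libraries, without an unpurified sample to set it against. The 6 oligodendrocyte markers were also abundant, led by Mbp, with sums of 11740 to 35940 CPM in the ONH and 23140 to 99500 CPM in the ONP, where at 7 days they exceeded the astrocyte sum in every library. Transcripts of the 34 photoreceptor genes made up 0.00403% to 0.0164% of all counts in the 11 ONP libraries. In 8 ONH libraries they made up 0.0203% to 0.0568%. The remaining 3 ONH libraries stood apart, with 0.282% in number 4 of day 30, 0.305% in number 5 of day 7 and 0.52% in number 6 of day 7. Of the 34 genes, 32 had their highest day 30 ONH value in number 4, and 33 had numbers 5 and 6 as the 2 highest day 7 ONH libraries. Within the ONP, number 5 of day 30 and number 5 of day 7 held the highest value of 21 and 23 genes. Calls of the 34 genes between regions are therefore given with and without the 3 ONH libraries, and calls between days with and without the libraries of their own region. These libraries were picked after their values were seen, and the sums, the rod to cone ratios, the interaction and the other gene lists are given over all libraries.

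**Figure D1:**
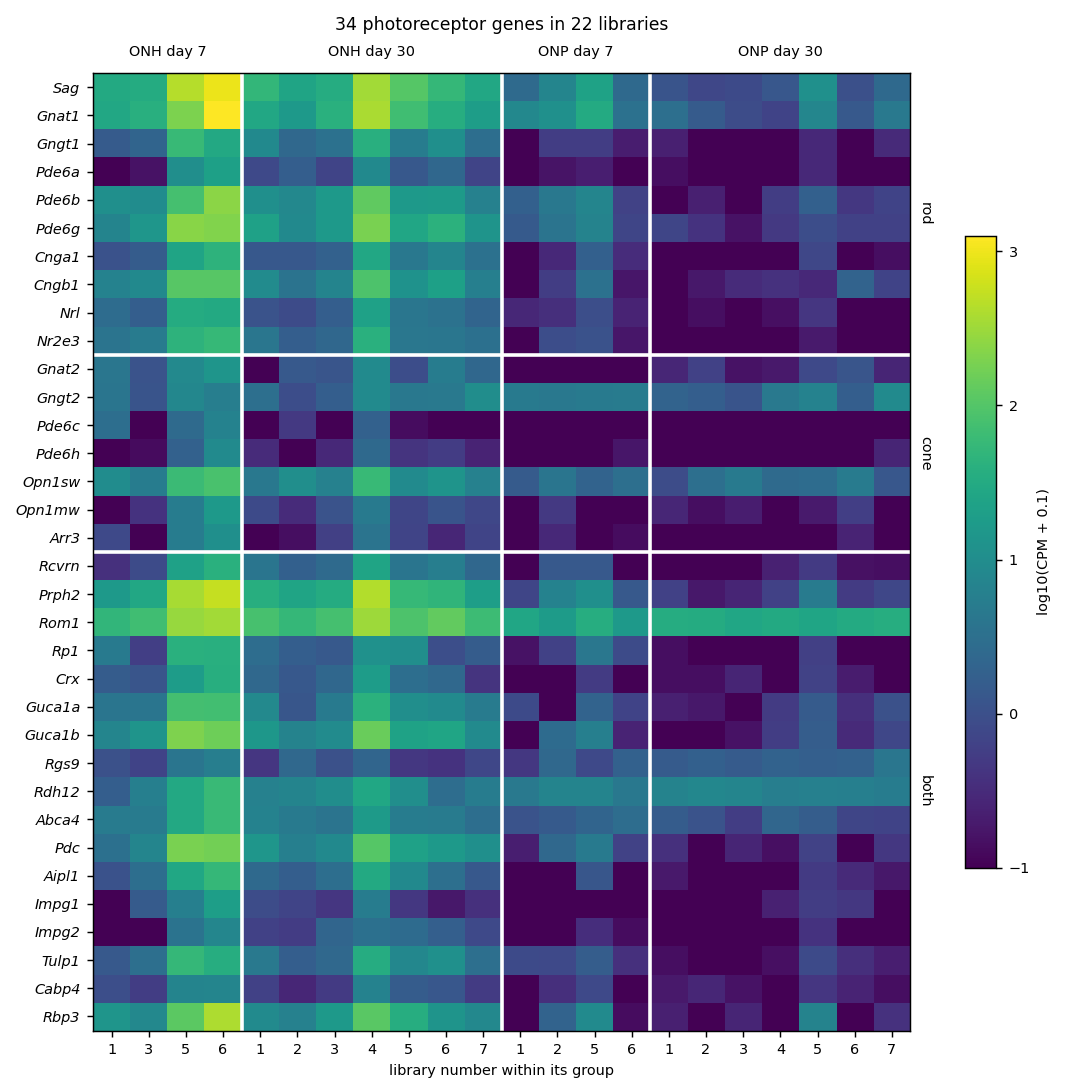
Level of each of the 34 genes (rows, grouped as rod, cone and both) in each of the 22 libraries (columns, grouped by region and day), as log10 of CPM plus 0.1. ONH day 7 numbers 5 and 6 and ONH day 30 number 4 are bright across nearly all rows, while Rom1 and Rdh12 are visible in every library.

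Summed over the 10 rod genes, the ONH at 30 days ranged from 68.5 to 1249 CPM with a median of 138 CPM. The ONP at 30 days ranged from 1.80 to 23.3 CPM with a median of 4.91 CPM. At 7 days, the 4 ONH libraries held 92.3, 114, 1236 and 2918 CPM, and the 4 ONP libraries 13.9, 28.6, 76.4 and 7.52 CPM. No ONP library reached the lowest ONH library of its day. The summed cone genes were lower than the rod genes in every ONH library, and their ranges overlapped between regions at 30 days, with 8.33 to 89.2 CPM in the ONH but 3.05 to 10.4 CPM in the ONP. In the ONP at 30 days the cone sum exceeded the rod sum in 5 of 7 libraries, with a median of 7.01 CPM. At 7 days the cone sums were 21.4, 7.60, 92.3 and 145 CPM in the ONH and 6.24 to 8.57 CPM in the ONP, also overlapping. The 17 shared genes summed to 121 to 1322 CPM in the ONH and 36.2 to 53.8 CPM in the ONP at 30 days, and Rom1, at 25.9 to 36.2 CPM, was the most abundant of them in each of these ONP libraries.

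**Figure D2:**
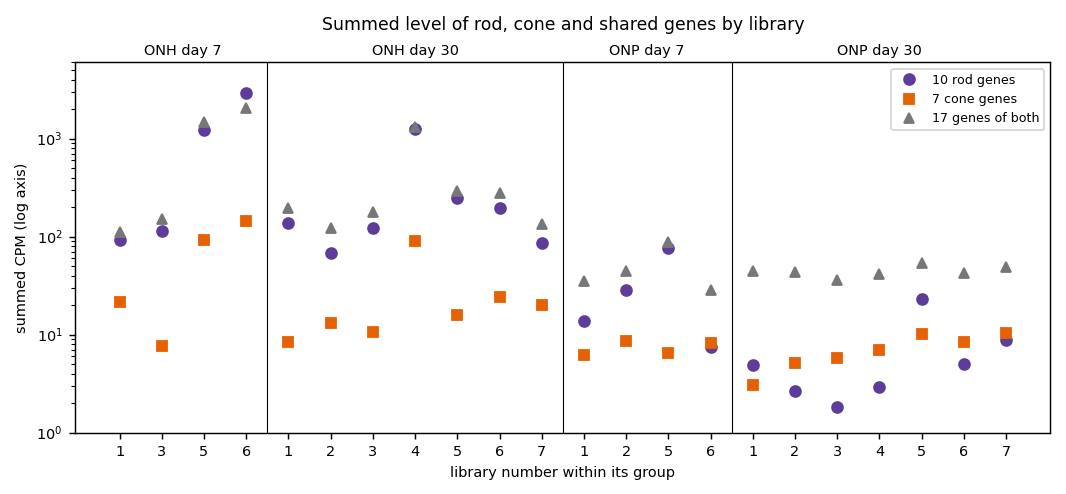
Summed CPM (log axis) of the 10 rod genes, 7 cone genes and 17 genes of both, one symbol per library, by region and day. Rod sums lie above cone sums in all 11 ONH libraries, and fall to 1.80 to 76.4 CPM in the ONP.

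The first comparison asked how the ONH and ONP differed at 30 days. Genes were tested with edgeR's quasi-likelihood test, and adjusted p-values are by Benjamini-Hochberg over all genes tested. Of the 34 genes, 28 had enough counts to be tested and 25 of them were higher in the ONH, beside 21.8% of the 15133 genes tested, while 41.8% were called in either direction. These were 10 of 10 rod genes, 3 of 4 cone genes and 12 of 14 shared genes, and none was lower. For 19 genes, every ONH library lay above every ONP library, beside 8.48% of all genes. The median log2FC of the 28 genes was 5.68, against -0.01 for all genes tested. A gene near 0 in the ONP could enter the test only through its ONH counts, so these figures describe the tested genes and not the whole list. The genes left untested for low counts were Pde6c, Pde6h, Arr3, Impg1, Impg2 and Cabp4. Without ONH number 4, 24 of 28 genes were still higher, beside a total of 39.2% of genes called in either direction, and the median log2FC was 4.61. Without ONP number 5, 26 of 29 genes were higher. Over all genes, the fits with a library left out called 5671 to 6416 in either direction, against 6322 in the main fit. Genes with few ONP counts outside number 5 had larger log2FC values without it, such as 8.12 for Rbp3 and 8.35 for Rp1.

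Among the photopigment shut-off genes, Sag, the rod arrestin that binds activated opsin, had a lowest, median and highest ONH level of 24.4, 51.7 and 334 CPM at 30 days. In the ONP these were 0.648, 1.06 and 11.5 CPM. The groups did not overlap, and Sag was higher in the ONH by a log2FC of 5.14 ± 0.83 (SE; edgeR adjusted p = 0.000185). The means were 90.1 ± 111 CPM in the ONH and 2.65 ± 3.97 CPM in the ONP (SD, n = 7 each), so that in both regions the spread between libraries was larger than the mean. The cone opsin gene Opn1sw, for the short-wavelength pigment, spanned 4.30 to 58.5 CPM in the ONH and 0.796 to 5.06 CPM in the ONP. Its groups overlapped, and it was higher in the ONH by a log2FC of 2.48 ± 0.59 (edgeR adjusted p = 0.00323). Opn1mw, for the middle-wavelength pigment, was lower still, at 0.216 to 4.55 CPM and 0 to 0.474 CPM, with a log2FC of 3.31 ± 0.81 (edgeR adjusted p = 0.00415) and overlapping groups. Of the exons of Opn1sw, 15.5% overlap Calu on the opposite strand, so that some of its counts could belong to that broadly expressed gene. The cone arrestin Arr3 held 111 counts over the 7 ONH libraries and 3 over the 7 ONP libraries, a ratio of 36.1 with an exact 95% counting interval of 12 to 178, which covers counting error only. ONH number 4 held 70 of the 111 counts and ONP number 6 all 3, so that the ratio rests on these libraries.

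Transducin genes were read one by one, and a difference between their rod and cone forms was not tested. Gnat1, the rod alpha subunit, had a lowest, median and highest level of 16.3, 35.6 and 378 CPM in the ONH and 0.557, 1.43 and 7.48 CPM in the ONP. The groups did not overlap (log2FC 4.99 ± 0.84; edgeR adjusted p = 0.000256). The rod gamma subunit Gngt1 held 2.33 to 38.7 CPM in the ONH and was at or below 0.203 CPM in every ONP library (log2FC 6.96 ± 0.90; edgeR adjusted p = 2.9e-05). Gnat2, the cone alpha subunit, held 0 to 9.21 CPM in the ONH and 0.056 to 1.11 CPM in the ONP. Its groups overlapped, and its higher ONH level (log2FC 2.86 ± 0.89; edgeR adjusted p = 0.0174) was not called without ONH number 4 (log2FC 2.18; edgeR adjusted p = 0.0529), with the replicate number as a block (log2FC 2.31; edgeR adjusted p = 0.0503) or by limma-voom (log2FC 2.08; adjusted p = 0.132). The cone gamma subunit Gngt2 did not pass the test, with 0.820 to 10.1 CPM in the ONH and 1.07 to 8.90 CPM in the ONP (log2FC 0.42 ± 0.57; edgeR adjusted p = 0.584). Gngt2 shares 12.5% of its exon bases with Abi3 on the opposite strand, and the counting was not stated to use strand. Pdc, phosducin, which binds the transducin beta-gamma dimer, spanned 5.78 to 103 CPM in the ONH and 0 to 0.545 CPM in the ONP, without overlap (log2FC 7.02 ± 0.85; edgeR adjusted p = 1.7e-05).

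The rod genes for PDE6 and for the channel were also higher in the ONH at 30 days. Pde6b, a catalytic subunit of rod PDE6, was at 6.27, 15.9 and 125 CPM (lowest, median and highest) in the ONH and at 0, 0.369 and 1.73 CPM in the ONP. Pde6g, the inhibitory subunit, was at 8.63, 22.4 and 185 CPM in the ONH and at 0.056, 0.527 and 0.842 CPM in the ONP. Both were higher without overlap, with log2FC values of 5.97 ± 0.92 (edgeR adjusted p = 0.00013) and 6.61 ± 0.78 (edgeR adjusted p = 1.27e-05). The other rod catalytic subunit, Pde6a, was rarer, at 0.584 to 8.69 CPM in the ONH and 0 to 0.198 CPM in the ONP, and also passed the test (log2FC 5.86 ± 0.96). The channel genes Cnga1 and Cngb1 were higher by log2FC values of 6.11 ± 1.11 and 5.58 ± 0.92. Of the ONP libraries, number 5 held 13 counts of Cnga1, number 7 held 1 and the rest 0, so that its value rests on number 5 and was 9 without it. The chaperone Aipl1, which PDE6 needs to fold, was at 1.22 to 30.5 CPM in the ONH and 0 to 0.396 CPM in the ONP. The cone catalytic subunit Pde6c had 44 counts over the ONH libraries and 0 in the ONP. Of these, 34 were in number 4, 9 in number 2 and 1 in number 5, so that 5 of 7 ONH libraries lay under the floor of 3 counts and no fold is given. Its inhibitory partner Pde6h did not exceed 2.41 CPM in any ONH library of day 30.

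Among the transcription factors, Nr2e3, the nuclear receptor that silences cone genes in rods, was the most one-sided. It had 1185 counts over the 7 ONH libraries and 2 over the 7 ONP libraries, a ratio of 578 with an exact 95% counting interval of 160 to 4780 (edgeR adjusted p = 2.3e-05). The interval covers counting error only, not the spread between libraries. ONH number 4 held 756 of these counts and ONP number 5 both of the 2, and the fitted log2FC ran from 7.4 without the first to 10.5 without the second. The ONH libraries ranged from 1.55 to 39.6 CPM, and 6 of 7 ONP libraries were at 0. Nrl, the leucine zipper factor that sets rod fate, was at 0.776, 1.97 and 22 CPM in the ONH and no higher than 0.347 CPM in the ONP (log2FC 6.25 ± 1.05; edgeR adjusted p = 0.000255). Crx was at 0.319 to 18.6 CPM in the ONH and at 0 to 0.545 CPM in the ONP, with overlap (log2FC 5.08 ± 0.97; edgeR adjusted p = 0.000707).

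Structural genes of the outer segment included the most abundant members. Prph2, a tetraspanin of the disc rim, had a lowest, median and highest level of 19.5, 36.7 and 423 CPM in the ONH and 0.086, 0.511 and 4.90 CPM in the ONP, without overlap (log2FC 6.52 ± 0.98; edgeR adjusted p = 0.000106). Its partner Rom1 differed in having a sizable ONP level, at 25.9 to 36.2 CPM with a mean of 31.1 ± 3.86 CPM (SD, n = 7). In the ONH, Rom1 reached 53.7, 80.6 and 311 CPM, so the groups did not overlap (log2FC 1.93 ± 0.33; edgeR adjusted p = 0.000298). Per kilobase of exon, Rom1 had the highest median level of the 34 genes in both regions at 30 days, with 53.1 CPM per kb in the ONH and 21.3 in the ONP. In the ONH it was followed by Prph2 (12.2 CPM per kb), Gnat1 (11.8) and Pde6g (9.67), and the libraries of these last 3 genes overlapped widely. Rp1, which organizes the axoneme, and Tulp1, which acts in protein transport to the outer segment, were higher by log2FC values of 5.79 ± 1.04 and 5.78 ± 0.92.

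The calcium sensor genes Rcvrn (recoverin), Guca1a and Guca1b (activators of guanylate cyclase) were higher in the ONH by log2FC values of 6.13, 4.66 and 6.36. Guca1b, for example, spanned 6.69 to 147 CPM in the ONH and 0 to 1.54 CPM in the ONP. Retinoid handling genes were split. Rbp3, the secreted retinoid carrier of the space around photoreceptors, was at 6.30, 13.1 and 114 CPM in the ONH. In the ONP it was at 6.64 CPM in number 5 and at or below 0.284 CPM in the other 6 libraries (log2FC 4.86 ± 1.15; edgeR adjusted p = 0.00322). Abca4, a lipid and retinoid transporter of the discs, was at 2.97 to 17.3 CPM and 0.451 to 2.14 CPM (log2FC 2.57 ± 0.45; edgeR adjusted p = 0.000338). Rdh12, a retinol dehydrogenase, did not pass the test, at 2.80 to 27.5 CPM in the ONH and 5.2 to 7.87 CPM in the ONP (log2FC 0.68 ± 0.38; edgeR adjusted p = 0.162). Rgs9, the GTPase accelerator that switches transducin off, had the only negative value, at 0.301, 0.637 and 2.29 CPM in the ONH and 1.41, 1.69 and 4.02 CPM in the ONP (log2FC -0.94 ± 0.49; edgeR adjusted p = 0.132), and was called lower by limma-voom.

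The same question at 7 days rested on other mice. Of 27 genes tested, 21 were higher in the ONH and none was lower, beside 6.34% of 14752 genes called higher overall. These were 9 of 9 rod genes, 2 of 3 cone genes and 10 of 15 shared genes, and all 21 were among the 25 called at 30 days. For 15 genes, no ONH library overlapped the ONP, beside 9.88% of all genes. As at 30 days, a gene near 0 in the ONP could enter the test only through its ONH counts. These figures therefore describe the tested genes and not the whole list. The 4 ONH libraries held 31, 32.7, 445 and 961 CPM of Sag, and the 4 ONP libraries 2.51, 7.29, 23.1 and 2.42 CPM (log2FC 5.39 ± 1.25; edgeR adjusted p = 0.0174). For Gnat1 the ONH held 28.3, 38.0, 196 and 1213 CPM and the ONP 8.13, 11.3, 32.0 and 3.30 CPM (log2FC 4.75 ± 1.22; edgeR adjusted p = 0.028). Each gene was thus low in 2 ONH libraries and many times higher in the other 2, and for Gnat1 the lowest ONH library lay below the highest ONP library.

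Of the other rod genes, Nrl held 2.68, 1.55, 33.7 and 30.3 CPM in the ONH (log2FC 5.52 ± 1.11; edgeR adjusted p = 0.00893), and Nr2e3 held 3.71, 4.93, 44.3 and 55.0 CPM, against 0 to 0.994 CPM in the ONP (log2FC 5.83 ± 1.19; edgeR adjusted p = 0.00943). Among cone genes, Gnat2 held 3.99, 1, 8.54 and 13.6 CPM in the ONH and was at 0 in all 4 ONP libraries, at least 44.1-fold higher with a floor of 3 counts per library (edgeR adjusted p = 0.00347). Gnat2 thus entered this test only through its ONH counts. Opn1sw held 9.88, 5.2, 61.5 and 83.3 CPM in the ONH and 1.41 to 3.77 CPM in the ONP, without overlap (log2FC 4.01 ± 0.83; edgeR adjusted p = 0.01). Gngt2 again did not pass the test, with a log2FC of -0.01 (edgeR adjusted p = 0.996). Pde6c, untested, had 54, 0, 46 and 111 counts in the ONH and 0 in the ONP, at least 19.2-fold higher over the group. Rom1 held 49.5, 69.4, 292 and 335 CPM in the ONH and 26.9, 18, 36.1 and 16.1 CPM in the ONP (log2FC 2.97 ± 0.60; edgeR adjusted p = 0.00899). Rcvrn, Rp1, Cabp4, Rdh12 and Rgs9 had positive log2FC values between 1.11 and 4.64 and did not pass the edgeR test. Of these, DESeq2 called Rp1, Cabp4 and Rdh12 (DESeq2 adjusted p = 0.0291, 0.00871 and 0.0339).

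The count of calls at 7 days depended on the method and on single libraries. The limma-voom test with quality weights called 3 of the 27 genes, namely Gnat2, Sag and Rom1. The share of all genes that limma-voom called is not given here, so a loss particular to the listed genes cannot be read from this count. DESeq2 called 28 of the 34 listed genes, beside 3211 of 16912 genes. Without ONH numbers 5 and 6, 2 of 27 genes were called, namely Gnat2 and Rom1 (log2FC 1.28; edgeR adjusted p = 0.031), beside 15.3% of all genes in either direction. The median log2FC was then 1.58 and 23 of 27 values were above 0. Leaving out ONP number 1, 2 or 6 alone left 11, 9 and 8 genes called, while leaving out ONP number 5 left 22. With ONH number 1 left out 23 genes were called, with number 3 24, with number 5 16 and with number 6 18. Over all genes, the calls in these fits also moved. They ran from 1102 without ONP number 6 to 2379 without ONH number 6, against 1940 in the main fit.

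**Figure D3:**
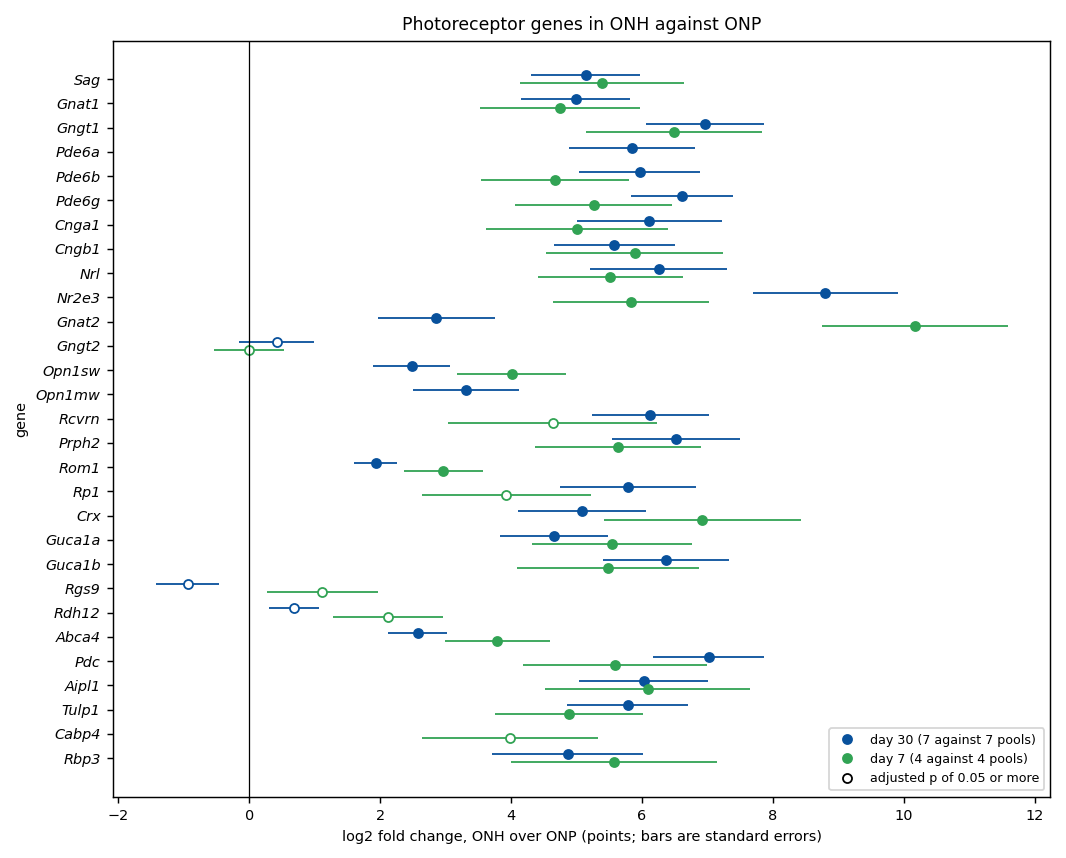
Log2FC of ONH over ONP (points, with standard errors as bars) for each tested gene at 30 days (blue) and 7 days (green), with open points for an adjusted p-value of 0.05 or more. Most rod and shared genes lie near 5 to 7, Gngt2, Rdh12 and Rgs9 are open at both days, and the 7 day point of Gnat2 and 30 day point of Nr2e3 set groups at or near 0 counts and depend on the fit.

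The rod and cone genes were then compared within libraries. The log2 ratio of the rod sum to the cone sum had a median of 3.53 in the ONH at 30 days (2.08 to 4.05, SD 0.786, n = 7) and 3.82 at 7 days (2.11 to 4.33, n = 4). In the ONP the medians were -0.743 at 30 days (-1.69 to 1.20) and 1.45 at 7 days (-0.12 to 3.56). At 30 days no ONP library reached the lowest ONH library. Much of the cone sum in the ONP came from Gngt2 and Opn1sw, whose exons overlap other genes, so the ONP ratio says little about cones. With those 2 genes left out, the log2 ratio lay between 3.59 and 7.16 in the 11 ONH libraries. In the 6 ONP libraries whose remaining cone genes held more than 3 counts, it was 3.79, 2.23, 4.88, 1.53 and 4.76 at 30 days and 5.64 at 7 days. The regions then overlapped, so that their separation in the ratio over all 7 cone genes rested on Gngt2 and Opn1sw.

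Pairs of rod and cone genes with the same role were compared per kilobase of exon, over the libraries where both genes lay above 3 counts. Gnat1 exceeded Gnat2 by a median of 24.3-fold in the ONH at 30 days (6.76 to 82.6, 6 of 7 libraries) and 30.1-fold at 7 days (7.02 to 88.3, 4 libraries). Sag exceeded Arr3 by a median of 24.1-fold at 30 days (5 libraries) and 22.9-fold at 7 days (3 libraries). Per kb, Pde6g exceeded Pde6h by 260-fold to 346-fold in 5 libraries at 30 days, and by 77.6-fold and 446-fold in 2 libraries at 7 days. Pde6h held 5, 4, 46, 8 and 10 counts in these libraries of 30 days and 158 and 33 in those of 7 days. Its exon length of 7846 bases, against 2317 for Pde6g, raises these ratios above those of the counts. Pde6b exceeded Pde6c by 12.4-fold and 41.4-fold in 2 libraries at 30 days and by 2.16-fold to 22.9-fold in 3 libraries at 7 days. The gamma subunits did not share this pattern, since the ratio of Gngt1 to Gngt2 had a median of 1.3 at 30 days (0.157 to 2.27) and 1.91 at 7 days (0.196 to 4.05). Gngt2 also held 4.22 to 5.06 CPM in the 4 ONP libraries of day 7, where Gnat2 and Pde6c were at 0. As measured, the excess of the rod gene over its cone counterpart differed between pairs. These differences depend in part on exon length, as for Sag (8904 bases) and Arr3 (2355) or Pde6g and Pde6h, and on Gngt2, so their size is uncertain. The excess also varied between libraries of a group, as in Gnat1 and Gnat2 or Gngt1 and Gngt2.

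**Figure D4:**
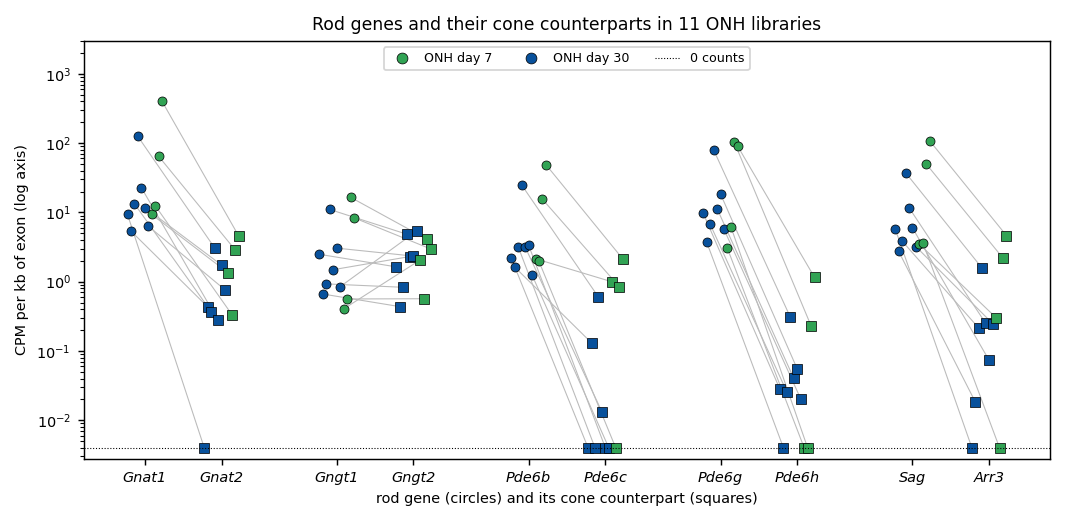
CPM per kb of exon (log axis) of 5 rod genes (circles) and their cone counterparts (squares) in the 11 ONH libraries, with a line joining the values of a library and genes at 0 counts drawn on the dotted line. Most lines fall from the rod to the cone gene, by as little as 2.16-fold for Pde6b and Pde6c in a library of day 7, while those of Gngt1 and Gngt2 go either way.

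The change between 7 and 30 days was examined within each region. These comparisons use the same libraries as the regional ones, so their values are not independent of them. In the ONH, 0 of 33 genes tested were called by edgeR, beside 0% of 15668 genes overall. At an unadjusted p-value under 0.05 there were 6 of 33, beside 13.9% of all genes, and DESeq2 called 0 of the 33, beside 2.49%. The log2FC was below 0, meaning lower at 30 days, for 32 of 33 genes, beside 51.6% of all genes, with a median of -1.56 against -0.02 for all genes. The smallest edgeR adjusted p-value was 0.239, for Abca4 (log2FC -1.92 ± 0.64). Sag had a log2FC of -2.01 ± 0.89 (edgeR adjusted p = 0.342) and Gnat1 of -2.11 ± 1.01 (edgeR adjusted p = 0.369). Markers of other cells lay below 0 in the same comparison, with 8 of 8 for RPE (median log2FC -1.2) and 7 of 7 for pigment cells (-0.833). So did 5 of 5 for endothelium (-1.98), 3 of 3 for surface epithelium (-5.63) and 4 of 11 astrocyte markers (0.0874). None of these was called by edgeR. DESeq2 called 1 pigment cell, 3 endothelial, 4 surface epithelium and 1 astrocyte marker, beside 2.49% of all genes. The part of these cells in the direction was not tested. The direction of the photoreceptor genes rested on the 3 libraries that stood apart. Without them, 27 of 32 genes tested were above 0, with a median of 0.565, and 0 genes of the list were called (smallest edgeR adjusted p = 0.11), beside 0.169% of all genes.

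In the ONP, 16 genes had enough counts to be tested and 4 of them fell between 7 and 30 days, beside 9.21% of 15491 genes called lower. Pde6g held 1.35, 3.64, 6.75 and 0.614 CPM at 7 days and 0.056 to 0.842 CPM at 30 days (log2FC -2.75 ± 0.64; edgeR adjusted p = 0.0136). Gnat1 fell by a log2FC of -2.36 ± 0.69 (edgeR adjusted p = 0.0352), Rp1 by -4.10 ± 1.21 (edgeR adjusted p = 0.0361) and Pdc by -3.30 ± 0.97 (edgeR adjusted p = 0.0365). None of the 16 rose, beside 7.82% of all genes. For none of the 16 genes tested did the groups separate, beside 6.58% of all genes that lay wholly higher and 5.55% wholly lower at 30 days. The levels were low, with Pdc at 0.122, 2.37, 4.80 and 0.537 CPM at 7 days and at or below 0.545 CPM at 30 days. Nr2e3, untested, had 39 counts in the 4 libraries of 7 days and 2 in the 7 of 30 days, a ratio of 35.3 (exact 95% counting interval 9.14 to 302, for counting error only), and 24 of the 39 were in number 5. Gnat2, also untested by edgeR, went the other way, with 0 counts at 7 days and 58 at 30 days, at least 2.61-fold higher. Each library of 30 days held 1 to 21 of its counts, so its groups separated, although the lowest lay under the floor of 3 counts. Of the other markers, 5 of 6 oligodendrocyte markers, 3 of 5 endothelial markers and, of 6 pigment epithelium markers, Rgr were also lower at 30 days, and none of these was higher. The 3 surface epithelium markers tested all lay below 0 (median log2FC -2.9), and 1 was called lower. All 6 microglia markers lay below 0 (-0.599), and none was called by edgeR. Of 7 Mueller glia markers 2 were lower, while the median log2FC of that list was 0.0994. Of 6 ganglion cell markers 2 were lower and 1 higher, and of 7 bipolar cell markers 1 was higher. The part of these cells in the result was not tested. The calls depended on the method and on single libraries. DESeq2 called 7 of 28 photoreceptor genes, of which only Gnat2, with 0 counts at 7 days, was higher at 30 days (DESeq2 adjusted p = 0.00186). The stricter filter of 10 counts called 2 of 11. The shares of all genes called by DESeq2 and under this filter are not given here, so neither count can be read against a background. The fit over all groups called 1 of 33, beside 1189 of 16748 genes. Without ONP number 5 of day 7, 1 of 17 genes tested was called, and none of the 4 named genes was. The count was also 1 without any of numbers 1, 2, 3, 4 or 6 of day 30, 2 without number 2 or 6 of day 7, and 5 without number 5 of day 30 or number 1 of day 7. Over all genes, the fits with a library left out called 1439 to 3214, against 2638 in the main fit. Without both libraries numbered 5, 5 of 13 genes were called, of which Pde6g, Gnat1, Sag and Prph2 were lower and Rom1 was higher (log2FC 0.64; edgeR adjusted p = 0.034), beside 17.6% of all genes.

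Whether the day change differed by region was tested as an interaction over all 4 groups, as the change in the ONP minus that in the ONH. Of 33 genes tested by edgeR, 0 were called, beside 0.543% of 16748 genes. At an unadjusted p-value under 0.05 there were 3, beside 12.6% of all genes, and DESeq2 called 1, beside 2.28%. The smallest adjusted p-value was 0.13, for Gnat2, a gene at 0 in 1 of the 4 groups. An effect seen in 1 region and not in the other was therefore not shown to differ between them.

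A wider list of 43 photoreceptor and phototransduction genes, of which 41 were in the table, was read from the same fits. At 30 days, 19 of 28 tested were higher in the ONH and 4 lower, beside 21.8% of all genes called higher and 41.8% in either direction. At 7 days, 19 of 34 were higher and 2 lower, beside 6.34% of all genes called higher. Genes near 0 in the ONP could enter these tests only through their ONH counts, and this holds for the marker lists below too. Grk1, the opsin kinase of rods, ranged from 1.33 to 30.1 CPM in the ONH at 30 days. At 7 days it held 2.24, 4.14, 33.9 and 31.5 CPM there, and no more than 1.90 CPM in any ONP library (log2FC at 30 days 6.96 ± 0.98; edgeR adjusted p = 5.82e-05). The ion exchanger gene Slc24a1 (log2FC 5.50 ± 0.82) and Nxnl2 (5.50 ± 0.65), which encodes a photoreceptor survival factor, followed at 30 days. At 7 days, Rd3, an inhibitor of guanylate cyclase, had a log2FC of 6.92. The most abundant gene of this list was Gnb1, a G protein beta subunit that most cells express, and the 4 and 2 genes called lower show that the list does not move as a whole. In the ONH no gene of the list was called between the days by edgeR, with 36 of 39 values below 0. In the ONP, 3 of 21 rose and 5 fell between 7 and 30 days, beside 7.82% and 9.21% of all genes, among them Gucy2e (log2FC 2.21 ± 0.45), which rose, and Slc24a1 (-2.55 ± 0.71), which fell.

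Markers of other cells of the eye were summed in the same libraries, and their part in the results above was not tested. The 8 retinal pigment epithelium (RPE) markers, cells that lie against the photoreceptors, summed to 183 to 1961 CPM in the ONH at 30 days and 74.4 to 120 CPM in the ONP. Rgr, a retinal G protein-coupled receptor, reached the highest level of the list, 2271 CPM in ONH number 6 of day 7, and 7 of 8 were higher in the ONH at 30 days and 6 of 8 at 7 days, beside 21.8% and 6.34% of all genes. The 7 pigment cell markers, such as Mlana (log2FC 8.87 ± 0.75 at 30 days) and Tyrp1, summed to 74.1 to 565 CPM in the ONH at 30 days and 3.30 to 6.70 CPM in the ONP, and all 7 were higher, beside the same 21.8%. Both lists thus separated the regions as the rod genes did, but their highest libraries were not always the same. ONH number 4 of day 30 held 5.06 times the rod sum of number 5, 5.93 times its RPE sum and 0.699 times its pigment cell sum. At 7 days, number 5 held 13.4 times the rod sum of number 1 but 0.741 times its RPE sum. Number 6 held 31.6 times the rod sum of number 1, 2.39 times its RPE sum and 0.743 times its astrocyte sum.

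The 11 retinal ganglion cell markers, led by the neurofilament gene Nefl, summed to 22.3 to 75.8 CPM in the ONH and 12.3 to 29.1 CPM in the ONP at 30 days, where 2 of 6 tested were higher and 1 was lower, beside 21.8% of all genes called higher. At 7 days, all 6 tested lay above 0 (median log2FC 1.4) and 2 were called higher, beside 6.34% of all genes. Pou4f2, which defines these cells, was at 0 in 21 of 22 libraries. The 9 amacrine cell markers, led by Gad1, summed to no more than 8.65 CPM in any library, with Slc18a3 and Chat at 0 in 21 and 19 libraries. Of the 15 bipolar cell markers, Prkca was the most abundant. Of 8 tested at 30 days, 2 were higher in the ONH, among them Trpm1 (log2FC 3.48 ± 0.45), and 3 were lower, beside 41.8% of all genes in either direction. Grm6 was at 0 in 16 of 22 libraries. It held 0.854, 0.681 and 0.043 CPM in ONH numbers 3, 4 and 6 of day 30. At 7 days it held 1.48 and 0.401 CPM in ONH numbers 5 and 6, and 0.428 CPM in ONP number 1. The Mueller glia list summed to 1471 to 3170 CPM in the ONH at 30 days and 745 to 1375 CPM in the ONP, led by Dkk3, and 3 of 7 were higher, Rlbp1 among them (1.84 ± 0.16), beside 21.8% of all genes. At 7 days, 4 of these 7 were higher and none was lower, beside 6.34% of all genes called higher. Among horizontal cell markers, Prox1 made up nearly all of the sum, and Onecut1 was at 0 in 21 of 22 libraries. At 30 days, 2 of these markers were tested, of which Onecut2 was higher in the ONH (log2FC 1.32 ± 0.41) and Prox1 lower (-0.55 ± 0.15), beside 41.8% of all genes in either direction. Markers of the pineal gland, which shares many photoreceptor genes, summed to at most 0.764 CPM, with Tph1 at 0 in 20 libraries. Pituitary markers summed to 221 CPM in ONH number 7 of day 30 and 30.1 CPM in number 4, and to no more than 6.71 CPM elsewhere, with Gh and Prl the most abundant in number 7. That library had the second lowest rod sum of its group, at 85.0 CPM. Endothelial markers, led by Cldn5, reached 191 CPM in ONH numbers 5 and 6 of day 7, against 12.3 to 60.6 CPM in the ONH at 30 days. Microglia markers ranged from 77.0 to 1872 CPM over all libraries. Surface epithelium markers, 4 keratin genes and Col17a1, reached 42.8 CPM at 7 days and stayed at or below 5.84 CPM at 30 days. Of the glial lists, 6 of 6 oligodendrocyte markers were lower in the ONH at both days. Over all genes, 41.8% were called in either direction at 30 days and 13.2% at 7 days. Of 11 astrocyte markers, 3 were higher and 3 lower at 30 days, beside the same 41.8%.

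**Figure D5:**
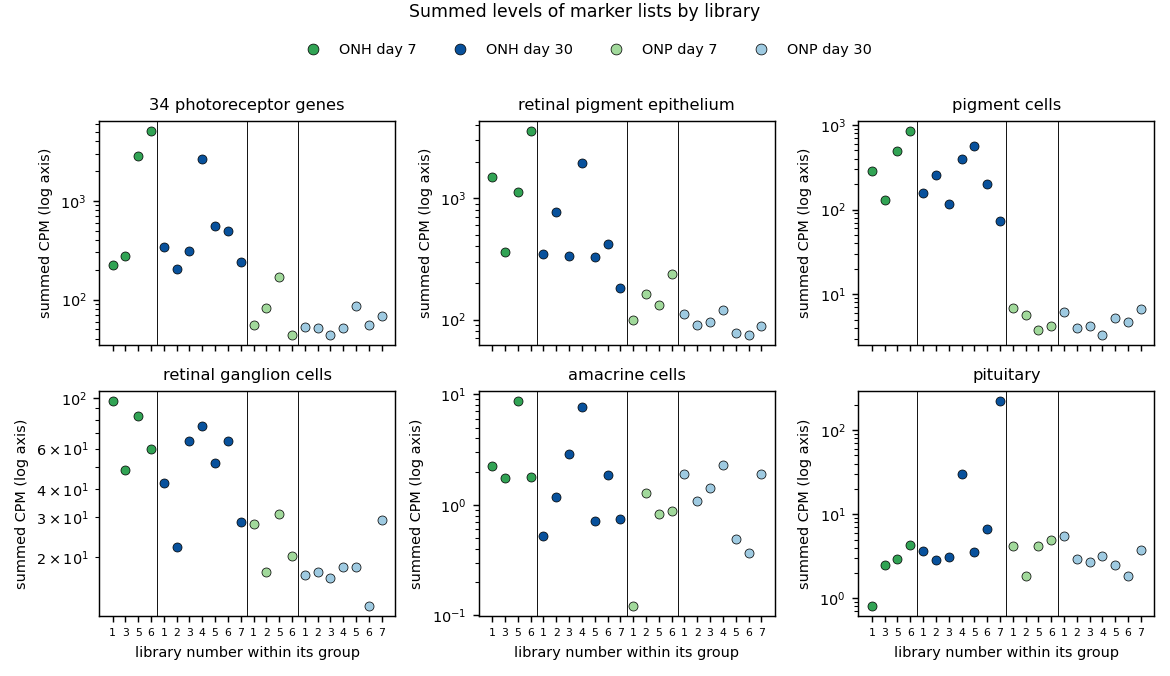
Summed CPM (log axes, which differ between panels) of 6 marker lists in each of the 22 libraries, coloured by region and day. The 34 photoreceptor genes and the retinal pigment epithelium and pigment cell lists are higher in the ONH, amacrine markers stay at or below 8.65 CPM, and pituitary markers stand out in ONH day 30 number 7.

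Finally, the genes were compared among themselves across libraries. In the ONH at 30 days, 30 of the 34 genes had counts above 0 in all 7 libraries, and among these the highest library exceeded the lowest by a median of 20.5-fold (5.8 to 59.6). The upper limit belongs to Impg1, whose lowest library held 2 counts, under the floor of 3. Between the 2 highest libraries of the series, ONH numbers 6 and 5 of day 7, the log2 ratio had a median of 0.75 over the 34 genes with an SD of 0.85, so the genes did not scale by a common factor. Gnat1 was higher in number 6 by a log2 ratio of 2.63 while Gngt1 had a log2 ratio of -0.98. Gnat1 made up 6.96% of the summed CPM of the 34 genes in number 5, 23.7% in number 6 and 14.2% in number 4 of day 30. Sag made up 15.8%, 18.8% and 12.5% of the sum in the same libraries, and Prph2 13.1%, 10.7% and 15.9%. Over all 22 libraries, the log2 CPM of Sag followed the mean of the other genes most closely (Pearson r = 0.981), with Nrl and Cnga1 next (0.979 each). Rgs9 (0.0899), Gngt2 (0.338) and Rdh12 (0.633) followed it least. These correlations describe libraries that share region and day, and the 3 libraries that stood apart weigh heavily in them.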

How the data were processed

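RNA was taken from HA-tagged ribosomes by immunoprecipitation, and polyA cDNA was made with a low-input Smart-Seq kit. The authors aligned reads with STAR 2.6.1d to mm10, quantified them with Salmon 0.14.2 and deposited the expected counts of each gene, in whole numbers and not normalized. A second table of theirs holds log2 values that the authors derived with the variance stabilizing transformation of DESeq2 1.34.0 in R 4.1.0, and was used here only to repeat the ranking of similar genes.

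Levels are CPM on TMM-scaled libraries, and levels per kb used union exon lengths of GENCODE M21, which covered 29351 of 29367 genes. The smallest amount read as detected was 3 counts, or 0.0912 to 0.192 CPM, which covers counting error only. Group comparisons used edgeR 4.0.16 under R 4.3.3 (filterByExpr, TMM, quasi-likelihood test, Benjamini-Hochberg adjustment over all genes tested, adjusted p under 0.05), group against group, with the interaction fitted over all 4 groups. p-values measure the spread between pools of 4 mice. Alternatives were DESeq2 1.42.0, limma-voom (limma 3.58.1) with quality weights, other scalings and filters, all groups in a single fit, the replicate number as a block, and each library left out in turn. Scripts were tested on simulated data.

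All members are named. From the other lists, the rule named up to 3 called genes with the largest log2FC per list and comparison and the most abundant gene, and 15 genes outside all lists most like the members. Markers given as being at 0 were picked with their values in view. The members and lists were chosen with earlier results of these data known. Some genes that the rule would name are not reported here.

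The study's methods state that ONH and ONP tissue came from the same mice, but no source ties this to the replicate numbers, so the tests were run without pairing. At 7 days the column numbers did not match the sample titles, so those libraries carry only their group and were not paired.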

Additional observations from a re-analysis of the deposited data

Results flagged for a closer look

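Of 148 groups of values examined, 50 had a library separated from the rest of its group by a gap that is large for the group's range (Dixon's 95% critical value). Chance would flag about 1 in 20 such groups if the values were normally distributed. These were CPM without a log transformation, often with an SD above the mean, so the rate here can be higher. The genes are also not independent of each other, since 32 of the 50 values came from a single library. That library, ONH number 4 of day 30, had the highest rod sum (1249 CPM), cone sum (89.2 CPM) and shared sum (1322 CPM) of its group. Among rod genes it held the separated value for Sag (334 CPM), Gnat1 (378 CPM), Gngt1 (38.7 CPM), Pde6a (8.69 CPM), Pde6b (125 CPM), Pde6g (185 CPM), Cnga1 (28.4 CPM), Cngb1 (89.8 CPM), Nrl (22 CPM) and Nr2e3 (39.6 CPM). Among cone genes these were Pde6c (1.78 CPM), Pde6h (2.41 CPM), Opn1sw (58.5 CPM), Opn1mw (4.55 CPM) and Arr3 (3.66 CPM). Among shared genes they were Rcvrn (24.9 CPM), Prph2 (423 CPM), Rom1 (311 CPM), Crx (18.6 CPM), Guca1a (40.8 CPM), Guca1b (147 CPM), Rdh12 (27.5 CPM), Abca4 (17.3 CPM), Pdc (103 CPM), Aipl1 (30.5 CPM), Impg1 (5.13 CPM), Tulp1 (35 CPM), Cabp4 (6.54 CPM) and Rbp3 (114 CPM). Gnat2, Gngt2, Rp1, Rgs9 and Impg2 had no separated value in that group.

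Among the 4 ONH libraries of day 7, the only separated value was Gnat1 in number 6 (1213 CPM), while numbers 5 and 6 were the 2 highest for 33 of the 34 genes, Pde6c being the exception. In the ONP at 30 days, number 5 was separated for the rod sum (23.3 CPM), Sag (11.5 CPM), Pde6b (1.73 CPM), Cnga1 (0.644 CPM), Prph2 (4.90 CPM), Rp1 (0.495 CPM), Crx (0.545 CPM), Guca1b (1.54 CPM), Tulp1 (0.743 CPM) and Rbp3 (6.64 CPM). In the same group, number 6 was separated for Cngb1 (1.90 CPM) and number 7 for Rgs9 (4.02 CPM). In the ONP at 7 days, number 5 was separated for Cnga1 (1.74 CPM), Cngb1 (3.31 CPM), Nrl (0.870 CPM), Crx (0.414 CPM) and Aipl1 (1.16 CPM).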

How the results depend on the processing

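The calls between regions at 30 days kept within 1.5 times their number under every alternative run, with 24 to 27 of the genes called when a library was left out. With each library left out in turn, some single calls were often lost, as between days in the ONP, where Rp1 changed its call in 9 of 10 fits, Pdc in 8 of 10 and Gnat1 in 7 of 11. Under the other alternatives, 739 single-gene values kept their direction and side of the threshold, 45 lost and 18 gained a call, and 36 changed direction. The cause of the changes below was not tested, beyond what leaving out a library shows by itself. The number of genes called between days in the ONH, 0 with edgeR, was 446 with DESeq2, 2 with no filter, 292 with all groups in a single fit, 28 without the 3 ONH libraries that stood apart, and 0 to 167 with a library left out. In the ONP it was 1189 with all groups in a single fit and 1439 to 3214 with a library left out. The 4 photoreceptor genes called there, all lower, were 7 with DESeq2, of which Gnat2 was higher. They were 2 with a minimum of 10 counts in 1 of every 2 libraries, 1 with all groups in a single fit and 1 to 5 with a library left out. Between regions at 7 days, DESeq2 called 3211 genes, the single fit 3785 and the fits without a library 1102 to 2379. The 21 photoreceptor genes called there were 3 with limma-voom, 2 without ONH numbers 5 and 6, and 8 to 24 with a library left out. The interaction gave 409 genes with DESeq2, 55 with limma-voom, 50 with no filter and 22 to 318 with a library left out, and DESeq2 called 1 photoreceptor gene. Per kb of exon, the median log2 ratio of rod to cone sums in the ONH at 30 days was 2.73. With the replicate number as a block, 24 photoreceptor genes and 6717 genes were called between regions at 30 days, and Gnat2 was the only photoreceptor gene whose call changed. No source ties the numbers to the same mice. Deviations of same-numbered libraries from their group means correlated at 0.0769 to 0.471, and 3 of 7 ONH libraries correlated best with the ONP library of their own number.

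Without the 3 ONH libraries that stood apart, the change from 7 to 30 days in the ONH turned positive, with no call, for Pdc (1.33), Rgs9 (0.132), Rcvrn (2.65), Rdh12 (0.918), Prph2 (0.695), Guca1b (0.553), Guca1a (0.784), Pde6a (4.86), Cabp4 (0.0994), Pde6g (1.03), Rp1 (0.279), Pde6b (0.281), Gngt1 (1.72), Opn1mw (2.14), Cngb1 (0.388), Gnat1 (0.0884), Impg2 (7.95), Tulp1 (1.26), Aipl1 (0.779), Nrl (0.0152), Rbp3 (0.432), Crx (0.577), Sag (0.654), Opn1sw (0.147), Cnga1 (1.4) and Rom1 (0.491), as log2FC. With limma-voom it was positive for Rcvrn (0.694), Pde6a (1.59), Gngt1 (0.1), Opn1mw (0.375) and Impg2 (2.81), and the ONP change of Opn1sw was -0.0883. Without ONH numbers 5 and 6 of day 7, the regional log2FC at 7 days was -0.783 for Rgs9, -0.307 for Rcvrn and -0.629 for Rdh12. That of Gngt2 was 0.121 with scaling by library size only. With a library left out, values crossed 0 for Impg2 (-1.21 to 0.394) and Gngt2 (-0.272 to 0.483) between days in the ONH, for Guca1a (-1.4 to 0.0282) and Opn1sw (-0.061 to 0.394) between days in the ONP, and for Gngt2 (-0.43 to 0.319) between regions at 7 days. Scaling by library size shifted the median log2FC of all genes by 0.114 between days in the ONP, 0.114 between regions at 7 days and 0.152 in the interaction. Levels under 3 counts could not be told from 0 at this depth, which covers most of the 11 ONP values of Nrl, Nr2e3, Pde6a and the cone genes other than Gngt2 and Opn1sw.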

Other observations

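Outside the lists, the genes whose log2 CPM over the 22 libraries was most like the mean of 33 photoreceptor genes, of 16748 genes ranked, were Rtbdn (Pearson r = 0.952), Vax2os (0.945), Prcd (0.941), Kcnj14 (0.94), Ankrd33 (0.93) and AI847159 (0.924). Prcd is known as a disc protein of photoreceptors and Rtbdn, retbindin, as a retinal riboflavin-binding protein. They were followed by Gm10639 (0.907), Krt18 (0.903), Samd11 (0.903), Impdh1 (0.9), Bsg (0.9), Gm17231 (0.898), Gsta2 (0.896) and Gsta1 (0.886). Bsg encodes basigin, which is expressed in many cell types, and Krt18 a keratin of simple epithelia. Of the 15 genes that ranked highest by log2 CPM, 11 were also among the highest 15 by the authors' log2 values. The libraries share region and day, and the 3 ONH libraries that stood apart weigh heavily in these correlations, so they rank genes and test nothing.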
